A study of Mus musculus with 4 samples.

Results

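Many IFIT and IFITM genes encode antiviral proteins of interferon-treated cells, and the 8 members measured here were Ifit1, Ifit2, Ifit3, Ifitm1, Ifitm2, Ifitm3, Ifitm5 and Ifitm6 of the mouse. They were chosen by name: every gene probe whose RefSeq accession belongs to 1 of these genes was taken, which gave 1 probe for each of the 8 genes among 20144 named genes on the array (8 of 26581 named probes). The signals come from 4 single-colour Agilent arrays of 1 slide, each hybridised with Cy3-labelled RNA of a different culture condition. AB1-HA, a mesothelioma line of BALB/c mice, and LLC, a Lewis lung carcinoma line with the strain label C57BL6, were exposed to vehicle or to IFN-γ for 24 h. With 1 array for each line and treatment, no difference had a replicate check and none could be tested. The dose of IFN-γ, the composition of the vehicle and whether a line is a single clone are not given in the sources used here. The study's title places the arrays in a search for a regulator that holds down IFN-γ-inducible factors in tumor cells.

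IFIT proteins are cytoplasmic and built of tetratricopeptide repeats, and several of them bind foreign RNA and block its translation. IFITM proteins are small and sit in the plasma membrane and in endosomes, where several of them hinder the fusion of enveloped viruses with the cell. Many genes of both families, though not all, are switched on by type I interferon. It acts through a complex of STAT and IRF factors that binds interferon-stimulated response elements in promoters. IFN-γ acts through its own receptor, the JAK kinases and gamma-activated sites, and it also raises IRF1, which binds response elements of the first kind.

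Promoter sequences are given first because the members differ in whether their start regions hold an exact match to the core of that response element. The sequences are RefSeq's on build GRCm38.p6, in windows from 250 bases before to 50 bases after each annotated start, and all 8 members had a window. Windows were searched on both strands for the response element's core, GAAA and GAAA with any 2 bases between them (here called the GAAA pair), and for TTCNNNGAA, the core of the gamma-activated site, which reads the same on both strands. The GAAA pair occurred in 3.44% of all 32851 mouse windows, and 0.225% held 2 or more. TTCNNNGAA occurred in 8.30% of the windows. Below are the 170 bases before the start of 4 members, position -170 to -1, with GAAA pairs in capitals (on the opposite strand they read TTTC, any 2 bases, TTTC).
Ifit1, chr19:34640719-34640888, plus strand: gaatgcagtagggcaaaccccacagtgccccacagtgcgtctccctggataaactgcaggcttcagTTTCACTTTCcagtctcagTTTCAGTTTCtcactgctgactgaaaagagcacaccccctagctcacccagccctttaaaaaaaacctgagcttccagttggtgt
Ifit3, chr19:34583359-34583528, plus strand: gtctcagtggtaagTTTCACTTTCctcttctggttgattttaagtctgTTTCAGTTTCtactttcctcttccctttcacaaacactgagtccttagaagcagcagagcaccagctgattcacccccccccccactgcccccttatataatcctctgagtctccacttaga
Ifit2, chr19:34550524-34550693, plus strand, the first of its 2 starts: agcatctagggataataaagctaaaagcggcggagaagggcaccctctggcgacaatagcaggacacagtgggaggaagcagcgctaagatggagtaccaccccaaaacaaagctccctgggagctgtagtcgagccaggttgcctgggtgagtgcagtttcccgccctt
Ifitm2, chr7:140955962-140956131, minus strand: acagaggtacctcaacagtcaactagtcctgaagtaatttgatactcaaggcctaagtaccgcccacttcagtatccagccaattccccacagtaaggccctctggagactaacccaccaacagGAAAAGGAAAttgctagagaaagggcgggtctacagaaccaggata
Ifit1 held the pair at -104 to -95 and at -85 to -76. Ifit3 held it at -156 to -147 and at -122 to -113, both on the opposite strand. Ifitm2 held 1 match, at -46 to -37. In Ifitm3 both matches lay just after the start, at +3 to +12 and at +20 to +29, and the stretch from +3 to +29 is printed with those matches in capitals.
Ifitm3, chr7:141010716-141010742, minus strand: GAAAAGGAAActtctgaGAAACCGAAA
A TTCNNNGAA match at +14 to +22 overlapped the second of them. The GAAA pair was not found in the windows of Ifit2 (either start), Ifitm1, Ifitm5 or Ifitm6. TTCNNNGAA was also found at -241 to -233 of the first Ifit2 start and at -10 to -2 of Ifitm6. A match describes the letters of the window and is not a measured binding site. Inexact matches and sites outside the windows were not searched for.

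Signals below are the scanner software's processed intensities, with background subtracted, and were not scaled between arrays. Differences are in log2 after each array was scaled to its 75th percentile, which ran from 1380 to 1598 intensity units. The ± beside a difference is the scanner's own error for the spots, about 0.20 for a bright probe; it does not hold the spread between cultures. Probes spotted repeatedly gave a smaller technical spread, with a median SD of the log2 difference of 0.0622 over 241 probes in AB1-HA and 0.0408 over 262 probes in LLC. The scanner marked 57.5 to 58.2% of 39419 probes as well above background on an array, and the lowest such signals were 7.01 to 8.26 units. A member marked on only 1 of 2 compared arrays was given a bound. Of the 8 members, 7 were well above background on all 4 arrays; Ifit1 was not on the LLC vehicle array.

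With IFN-γ, 5 of the 8 members were at least 2-fold higher in AB1-HA (Ifit1, Ifit2, Ifit3, Ifitm3 and Ifitm6) and 4 of 8 in LLC (Ifit1, Ifit3, Ifitm3 and Ifitm6). No member was 2-fold lower in either line. Over all genes with a value, 2.98% were 2-fold higher and 1.17% lower in AB1-HA (13208 genes), and 3.68% were higher and 1.46% lower in LLC (13411 genes). The median difference of the members was 1.28 in AB1-HA and 0.57 in LLC, against -0.08 and -0.06 over all genes. The 3 IFIT genes had medians of 3.24 and 2.97, and the 5 IFITM genes had medians of 0.08 and -0.07. The 2.97 is the Ifit1 bound in LLC, so that median is a lower limit.

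**Figure D1:**
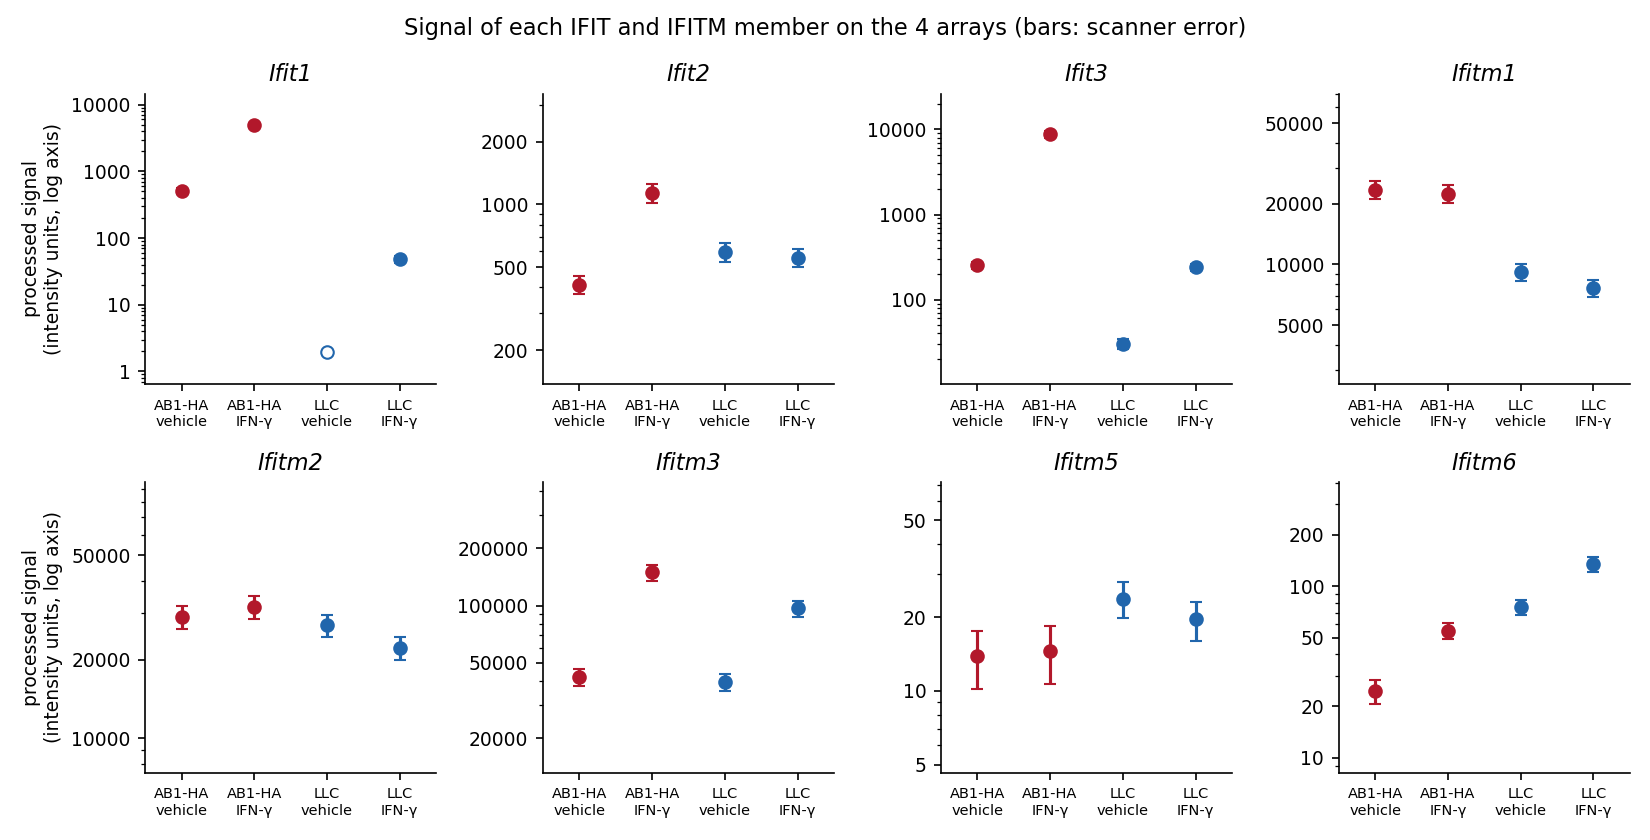
Processed signal (intensity units, log axis) of each of the 8 members on the AB1-HA arrays (red) and LLC arrays (blue) with vehicle or IFN-γ; bars are the scanner error of 1 array and the open circle is a signal not well above background. Ifit3 reached 8822 units in AB1-HA with IFN-γ and 241 in LLC, while Ifitm1, Ifitm2 and Ifitm5 stayed level within each line.

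Ifit1 binds RNA whose cap lacks the methyl mark of host messengers. Its signal was 505 units in AB1-HA with vehicle and 4908 with IFN-γ, 1.93 (not well above background) in LLC with vehicle and 48.2 with IFN-γ. Both AB1-HA arrays were above both LLC arrays. In AB1-HA the difference with IFN-γ was 9.45-fold, or 3.24 ± 0.204. In LLC it was at least 7.85-fold, a bound, so the sizes in the lines cannot be set against each other. Another background correction, normexp, was run on median signals with 50 units added to each spot. With it the LLC bound dropped to 0.87 and passed 2-fold no longer.

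Ifit3 in humans binds IFIT1 and strengthens its hold on RNA. Its signal was 255 units in AB1-HA with vehicle, 8822 with IFN-γ, 30.4 in LLC with vehicle and 241 with IFN-γ. The treated LLC culture thus reached about the level of the untreated AB1-HA culture, the gap of 0.10 after scaling being within the scanner error. The difference with IFN-γ was 33.7-fold in AB1-HA (5.07 ± 0.204), the 25th highest of 12700 genes measured on both arrays. In LLC it was 9.07-fold (3.18 ± 0.238), the 75th highest of 12884, and 1.56 with normexp. The LLC difference was smaller than that of AB1-HA by 3.71-fold (-1.89 ± 0.314).

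Ifit2 limits the spread of neurotropic viruses in mice. Its signal was 411 units in AB1-HA with vehicle, 1133 with IFN-γ, 591 in LLC with vehicle and 554 with IFN-γ. It was higher with IFN-γ in AB1-HA by 2.68-fold (1.42 ± 0.204), and in LLC the difference was 0.10 ± 0.204. The unscaled LLC signals ran the other way, and the LLC value turned to -0.05 when arrays were scaled to their median, a scaling that moved the median of all genes in LLC from -0.06 to -0.20. The LLC difference of Ifit2 was smaller than that of AB1-HA by 2.50-fold (-1.32 ± 0.289), the 102nd lowest of 11985 genes; that of Ifit3 was the 31st lowest. The Ifit2 difference between lines stayed between -1.46 and -1.04 under the alternatives tried.

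Ifitm3, which restricts influenza A virus in late endosomes, was the brightest member and was spotted 10 times on each array. Its mean signal over spots was 41988 ± 2140 units (SD of 10 spots) in AB1-HA with vehicle and 149326 ± 3359 with IFN-γ. In LLC it was 39402 ± 1221 with vehicle and 96616 ± 2127 with IFN-γ. The spots of the vehicle arrays ran from 37929 to 46936 and those of the IFN-γ arrays from 93018 to 156089, with no overlap; spots of 1 array share the culture and are no replicates. The difference with IFN-γ was 3.46-fold in AB1-HA (1.79 ± 0.204) and 2.80-fold in LLC (1.48 ± 0.204). These differences stood 0.31 ± 0.289 apart, which is below 2-fold. None of the 4 arrays was saturated at any spot of a member.

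Ifitm6, a rodent member of the family, was dim throughout. Its signal was 24.5 units in AB1-HA with vehicle, 55.1 with IFN-γ, 75.3 in LLC with vehicle and 135 with IFN-γ. Unlike the IFIT genes, it was brighter on both LLC arrays than on either AB1-HA array. The difference with IFN-γ was 2.19-fold in AB1-HA (1.13 ± 0.276) and 2.05-fold in LLC (1.03 ± 0.209). In LLC it was below 2-fold with 3 other scalings (0.86 to 0.92), and with normexp it was 0.19 in AB1-HA and 0.28 in LLC.

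The other IFITM members differed little with IFN-γ. Ifitm1, found at the plasma membrane, had signals of 23434 and 22379 units in AB1-HA (vehicle, IFN-γ) and 9143 and 7633 in LLC, with differences of -0.11 and -0.07. Ifitm2, an endosomal member, had 29138.5 and 31766 units in AB1-HA and 27013 and 22168.5 in LLC, with differences of 0.08 and -0.09. Ifitm5, a protein of osteoblasts that is mutated in a human brittle bone disease, was near the floor at 13.9, 14.6, 23.9 and 19.6 units in the same order of arrays. Its differences of 0.03 ± 0.544 and -0.09 ± 0.356 were smaller than their errors. Of the osteoblast markers, Runx2 was well above background on all 4 arrays, Sp7 on 3, and Ibsp and Alpl on none. For each of Ifitm1, Ifitm2 and Ifitm5 the arrays of 1 line could not be ordered beyond the scanner error.

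**Figure D2:**
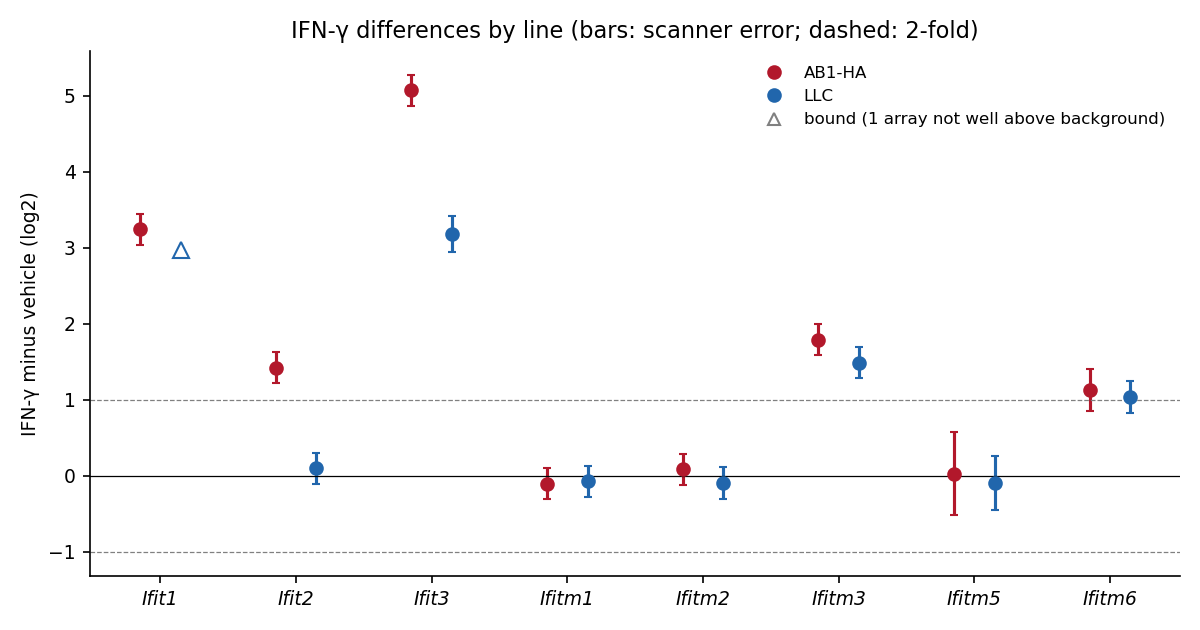
IFN-γ minus vehicle (log2) of each member in AB1-HA (red) and LLC (blue), with bars for the scanner error and a mark at the bound for Ifit1 in LLC. Ifit3 stood highest in AB1-HA, at 5.07. In LLC it was at 3.18, and Ifit1, with a bound of 2.97, could lie above it. Ifit2 was at 1.42 in AB1-HA and 0.10 in LLC.

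The lines were also set against each other within a treatment; these comparisons use the same 4 arrays as those above and are not independent of them. With vehicle, 3 of 8 members were at least 2-fold lower in LLC than in AB1-HA (Ifit1, Ifit3 and Ifitm1) and Ifitm6 was higher, where 16% of 13836 genes were lower and 16.4% higher. Ifit1 was at least 83.4-fold lower in LLC and Ifit3 9.71-fold lower (-3.28). Ifitm1 was 2.97-fold lower (-1.57) and Ifitm6 2.66-fold higher (1.41). Ifit2, Ifitm2 and Ifitm3 lay within 2-fold, at 0.31, -0.32 and -0.30, and Ifitm5 at 0.57 ± 0.453.

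With IFN-γ, 4 of 8 members were at least 2-fold lower in LLC (Ifit1, Ifit2, Ifit3 and Ifitm1) and Ifitm6 was higher, where 13.3% of 13893 genes were lower and 15.4% higher. Ifit1 was 100.4-fold lower in LLC (-6.65), the 30th lowest of 12282 genes measured on both arrays. Ifit3 was 36.1-fold lower (-5.17), the 69th lowest. Ifit2 was 2.02-fold lower (-1.01), which became -0.87 with normexp. Ifitm1 was 2.89-fold lower (-1.53), and Ifitm6 was 2.49-fold higher (1.31). Ifitm2 and Ifitm3 were at -0.50 and -0.61. With normexp the Ifitm6 values between lines were 0.16 with vehicle and 0.24 with IFN-γ, both under 2-fold, the Ifit1 values were -2.58 (a bound) and -4.75, and the Ifit3 value with vehicle was -1.62.

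Of the 7 members measured on all 4 arrays, 2 had an IFN-γ difference at least 2-fold larger in AB1-HA (Ifit2 and Ifit3) and 0 had one larger in LLC. Over 11985 genes, 1.69% were larger in AB1-HA and 2.54% in LLC. A further count, chosen after the data were seen, added genes with a bound in 1 line where that bound alone put the lines 2-fold apart. It left the members at 2 and 0 of 8, since the Ifit1 bound settled nothing, with 2.01% of 12361 genes larger in AB1-HA and 3.02% in LLC. With no background filter, which takes the dim signal as measured, 3 members were 2-fold apart in the effect (Ifit1, Ifit2 and Ifit3). Ifit1 was then larger in LLC, at 4.84 against 3.24 in AB1-HA. The differences of Ifitm1, Ifitm2, Ifitm5 and Ifitm6 stood 0.04, -0.18, -0.12 and -0.10 apart (LLC minus AB1-HA), each within its scanner error. The Ifitm1 sign turned under 3 other scalings, and that of Ifitm6 turned with normexp.

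**Figure D3:**
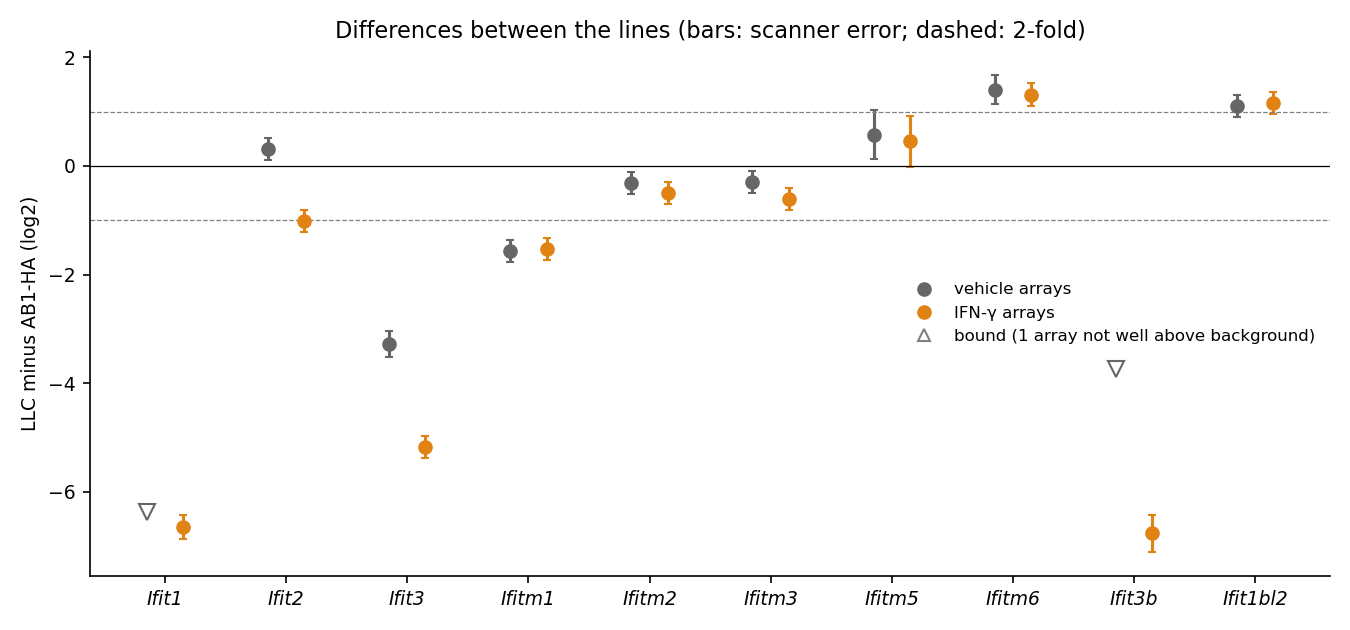
LLC minus AB1-HA (log2) of each member and of the relatives Ifit3b and Ifit1bl2 on the vehicle arrays (grey) and on the IFN-γ arrays (orange), with bars for the scanner error and triangles at the bounds for Ifit1 and Ifit3b with vehicle. Among the members Ifit1 and Ifit3 lay lowest on both, at -6.65 and -5.17 with IFN-γ, and Ifitm6 lay above 0 at 1.41 and 1.31.

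The members sit in clusters on 2 chromosomes, and their neighbours were read in chromosomal order. On chromosome 19 the order was Ifit2, Ifit3, Ifit1bl1, Ifit3b, Ifit1bl2 and Ifit1. Of the 5 protein-coding genes on each side, 9 of 10 had a value, and 2 were 2-fold higher with IFN-γ in AB1-HA: Fas, a death receptor, at 2.55, and Acta2, smooth muscle actin, at 1.28. In LLC 3 of 9 were higher: Fas at 2.40, Ch25h, an antiviral cholesterol hydroxylase, at 2.08, and Slc16a12, a transporter, with a bound of 1.59. On chromosome 7 the order was Ifitm5, Ifitm2, Ifitm1, Ifitm3 and Ifitm6, so that Ifitm1 at -0.11 in AB1-HA lay beside Ifitm3 at 1.79. Of the flanking genes there, 7 had a value in each line and 0 passed 2-fold, with ranges of -0.14 to 0.71 in AB1-HA and -0.29 to 0.30 in LLC.

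**Figure D4:**
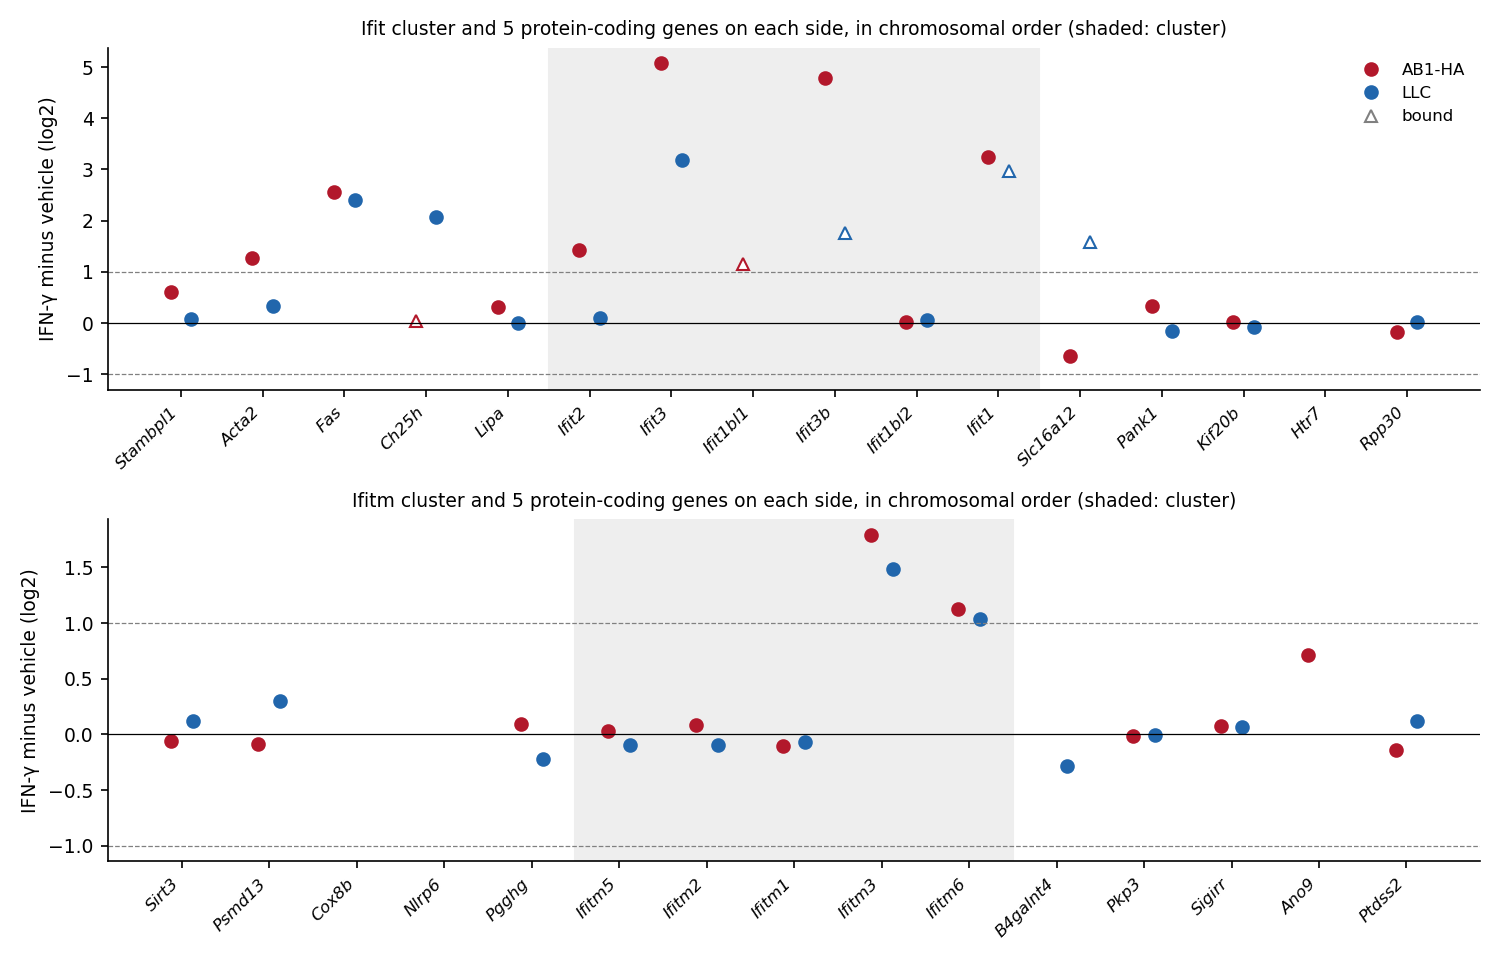
IFN-γ minus vehicle (log2) of the Ifit and Ifitm genes and the 5 protein-coding genes on each side (cluster shaded, triangles for bounds), in chromosomal order and not to distance, for AB1-HA (red) and LLC (blue). Fas, the third gene before Ifit2, stood at 2.55 and 2.40, and none of the 7 neighbours of the Ifitm genes with a value in a line passed 2-fold.

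Of 5 family relatives outside the member list, 4 had a probe. Ifit3b, a close copy of Ifit3, had signals of 80.6 units with vehicle and 2297 with IFN-γ in AB1-HA; in LLC it was too dim with vehicle to stand well above background and had 20.8 units with IFN-γ. That is 27.7-fold in AB1-HA, at least 3.39-fold in LLC, and 109-fold lower in LLC than in AB1-HA with IFN-γ. A second Ifit3b probe was at least 23.2-fold higher in AB1-HA and had no value in LLC. The upstream bases of Ifit3 and Ifit3b were identical at 216 of 224 aligned positions (96.4%), and whether the Ifit3 probe also captures Ifit3b RNA was not tested, so the split between these 2 genes is uncertain. Ifit1bl1 was well above background only in AB1-HA with IFN-γ, at 18.8 units (at least 2.21-fold). Ifitm10 was well above background on no array.

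The receptors, kinases and factors that drive these genes were read from a list of 15. Of them 5 of 14 were 2-fold higher with IFN-γ in AB1-HA and 6 of 15 in LLC, 0 were lower in either line, and the medians were 0.52 and 0.48. Stat2 and Irf9, parts of the complex that binds the response element, were higher by 3.82 and 2.53 in AB1-HA and by 3.13 and 3.23 in LLC. Irf1 was higher by 4.44 and 4.43. In the IFN-γ effect, 0 of the 12 genes measured on all 4 arrays differed 2-fold between lines. Counting bounds, 2 of 14 did: Irf7 was higher by at least 5.23 in LLC and by 2.70 in AB1-HA, and Irf5 by 1.30 in LLC and at least 2.73 in AB1-HA. With vehicle, 3 of 15 were 2-fold higher in LLC than in AB1-HA and 2 were lower, with a median of 0.46. Over all genes 16.4% were higher and 16% lower. The lower ones were Irf7, an amplifier of the interferon response, by at least 45.1-fold, and Irf9, by 1.49 on the log2 scale. The higher ones were Irf8, a factor of myeloid cells (at least 135-fold), Irf5 (at least 22.1-fold) and Ifnar1 (1.09 on the log2 scale).

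Among 33 other antiviral genes, 24 of 27 with a value were 2-fold higher with IFN-γ in AB1-HA (median 3.18, from 0.03 to 5.86) and 22 of 26 in LLC (median 2.86, from 0.42 to 10.38). With vehicle, 17 of 25 were lower in LLC and 1 was higher, with a median of -2.95, and with IFN-γ 19 of 28 were lower and 3 higher, with a median of -1.78. Zbp1, a sensor of left-handed nucleic acids, stood at -8.29 (a bound) with vehicle and at -2.74 with IFN-γ, and Ifit3 at -3.28 and -5.17. In the IFN-γ effect, 4 of 18 measured on all arrays were larger in LLC and 3 in AB1-HA. With bounds counted, 9 of 25 were larger in LLC and 3 in AB1-HA; the 5 added were Oas2, Oasl2, Ifi44, Ifih1 and Zbp1, which with vehicle were not well above background in LLC.

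**Figure D5:**
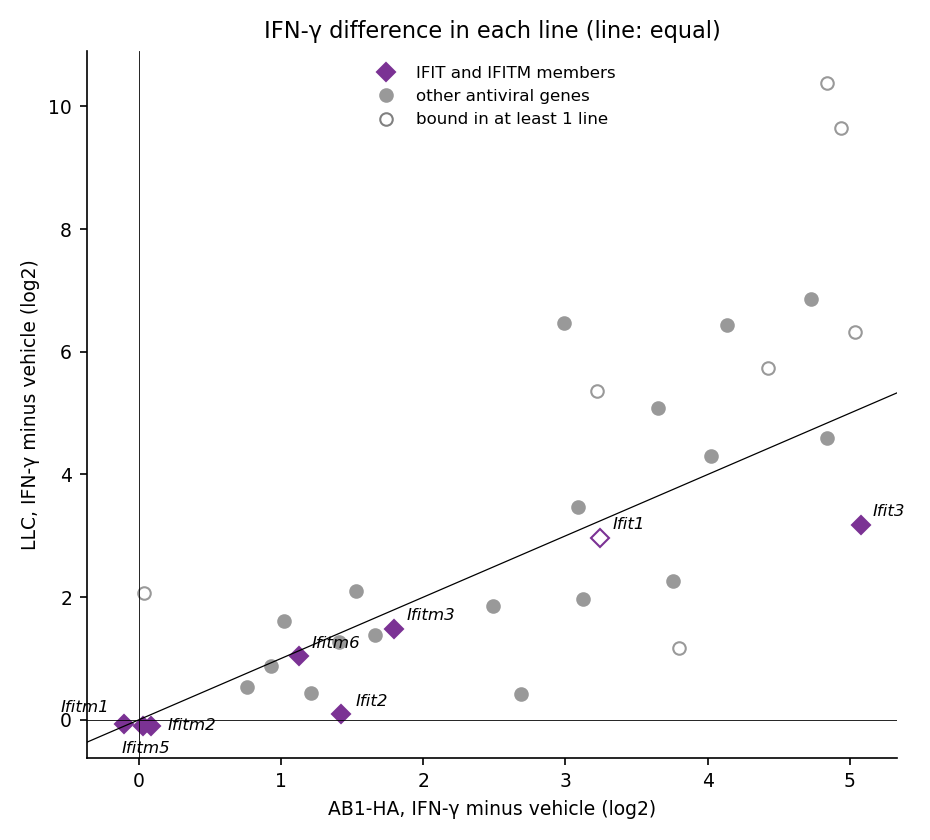
IFN-γ minus vehicle (log2) in AB1-HA (x axis) and LLC (y axis) for the members (purple) and the other antiviral genes (grey), with open marks for bounds in at least 1 line and a line of equal difference. Ifit3 (5.07, 3.18) and Ifit2 (1.42, 0.10) lay below the line.

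Genes encoding type I and III interferons, which act on the same promoters, gave little signal. Of 14 with a probe, 8 had a value in each line and 0 passed 2-fold in either, with medians of -0.31 in AB1-HA and 0.28 in LLC. Ifna12, dim at 13.9 to 25.9 units, came nearest at 0.999 in LLC. Its effect was larger in LLC by 1.38, the only 1 of 8 that passed 2-fold. With vehicle, 3 of 8 were 2-fold lower in LLC and 0 higher, where 16% of all genes were lower. With IFN-γ, 0 of 10 differed 2-fold between the lines. Ifnb1 was well above background only in AB1-HA with IFN-γ, at 8.25 units, near the floor of that array.

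Genes whose levels were most like a member's over the 4 arrays were found by the root mean square distance of their log2 values, each centred on its own mean, among 11984 other genes. Ifitm3 was nearest to Oas1e (0.078), Mitd1 (0.10) and Xdh (0.11). Ifit3 had no close match, the nearest being Usp18 (0.57), Phf11b (0.61) and Csprs (0.68). Ifit2 was nearest to Trem2 (0.14), Gpr146 (0.16) and Il17rc (0.16), and Ifitm6 to Dhrs7 (0.17), Prrx1 (0.20) and Gimap9 (0.22). The flat members had many genes within 0.1 of them: 72 for Ifitm1, 527 for Ifitm2 and 645 for Ifitm5.

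Markers were read to check the labels, and those of mesothelium and lung epithelium did not sort the lines by tissue. Of 10 mesothelial markers, Wt1, Upk3b, Upk1b, Lrrn4 and Calb2 were well above background on no array. With vehicle, Msln was 378-fold, Pdpn at least 1485-fold and Krt19 3.22-fold lower in LLC than in AB1-HA. The keratins Krt8 and Krt18 went the other way, 172-fold and 485-fold higher in LLC. Of 8 lung epithelial markers, Nkx2-1, Sftpb, Sftpc, Epcam and Cdh1 were well above background on no array. Napsa was 29.8-fold lower in LLC, the line labelled as lung carcinoma, and Sftpd and Scgb1a1 were dim, at 4.71 to 42.4 units. Of 7 mesenchymal markers, 3 were 2-fold lower in LLC with vehicle, 1 was higher and 3 lay within 2-fold. Col1a2 was 4164-fold and Col1a1 462-fold lower, and Acta2 was 13.8-fold higher. Of 4 endothelial markers 2 had a value, with Kdr 2.20-fold lower in LLC and Pecam1 within 2-fold. Of the leukocyte markers, Itgam, Csf1r and Cd3e were well above background on all 4 arrays, and Ptprc, Adgre1, Lyz2 and Ncr1 on none. Csf1r, the receptor of a macrophage growth factor, had 644 and 520 units in AB1-HA (vehicle, IFN-γ) and 183 and 537 in LLC, 3.35-fold higher with IFN-γ there, and its part in the members' differences was not tested. Fewer cells that express a gene and less RNA of it per cell cannot be told apart in these bulk cultures.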

How the data were processed

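Per the file headers, the authors' intensity values are Feature Extraction 10.7.1.1 processed signals of Agilent arrays, background-subtracted and not scaled between arrays. The authors also deposited a table of log2 values for the series. Set against the scanner signals (Pearson correlation 0.999998 or more over 39313 probes) they were scaled to the 75th percentile and centred on each probe's median of the 4 arrays, with the direction of the signal. The table's medians in AB1-HA were 0.108 with vehicle and -0.0777 with IFN-γ, and in LLC -0.127 and 0.0759. The sources used here state neither how that table was made nor whether cultures were pooled.

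Control spots and spots with outlier marks (166 to 201 per array) were left out, spots of a probe were averaged, and log2 intensities were scaled to each array's 75th percentile. A probe was well above background where at least 0.5 of its spots carried the scanner's mark. A bound sets the brighter signal against the higher of the dim probe's own and the lowest signal well above background. The probe with the highest mean stood for a gene with several. Probes were named through RefSeq accessions without versions (assembly GRCm38.p6, names and order only); 26581 of 39429 matched. Genes were called at 2-fold; with 1 array a group no p-value exists, and the number of arrays limits the precision. The members and lists were chosen with earlier results of these data known. Every member is named, and listed genes by their largest and smallest differences; 1 marker gene is not reported here. A few text examples (Zbp1, Irf8, Ifnb1, neighbours) were singled out after their values were seen. Tools were Python 3.11.15, numpy 2.4.6, pandas 2.3.3, R 4.3.3 and limma 3.58.1, and the calling script was tested on simulated data. The 11 alternatives covered scaling, background correction (normexp on median signals), filters, probe choice and threshold.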

Additional observations from a re-analysis of the deposited data

Results flagged for a closer look

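The IFN-γ difference had opposite signs in the lines for 2 members, which is what singled them out. For Ifitm2 it was 0.08 in AB1-HA and -0.09 in LLC. For Ifitm5 it was 0.03 in AB1-HA and -0.09 in LLC. Each value was smaller than its scanner error, and the difference between the lines was not tested.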

How the results depend on the processing

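No paired analysis was possible because each group held 1 array. Of 331 measured member differences recomputed under the alternatives, 316 moved by no more than their scanner error and 15 by more (13 of these with normexp). Some of the 331 were fixed in advance. Each member had 1 probe, so the mean over probes returned the main value. The background filters left measured values as they were, and the authors' table held the same signals at the same scaling. Of 16 recomputed Ifit1 bounds, 9 moved by more than the error of the brighter array. They ran from 0.87 to 4.84 for LLC with IFN-γ and from -8.25 to -2.58 between the vehicle arrays, farthest from 0 with no background filter, which takes the dim signal as measured. No called value changed sign. Normexp was run on median signals with 50 units added to each spot, an offset that shrinks differences of dim probes. With it the members 2-fold higher with IFN-γ in LLC numbered 2 (Ifit3 and Ifitm3), against 4 before. Those apart between the IFN-γ arrays numbered 3 (Ifit1, Ifit3 and Ifitm1), against 5 before. The relatives higher with IFN-γ numbered 1 in AB1-HA and 0 in LLC. The Ifit3 effect difference widened from -1.89 to -3.03. With only genes well above background on all 4 arrays, fewer genes had a value. Of relatives 0 of 1 was higher in each line, Ifit3b being left out by this filter. Of receptors and factors 3 of 12 were higher in AB1-HA and 3 of 12 in LLC. Of the other antiviral genes 16 of 18 were higher in AB1-HA and 14 of 18 in LLC. With the mean over probes, 0 relatives were higher in LLC. At 4-fold, 2 members were higher with IFN-γ in each line, 2 differed between the vehicle arrays, 2 between the IFN-γ arrays, and 0 in the size of the effect. Over all genes, the share of higher among called genes in LLC was 71.6%, against 55.5% with array medians, 60% with quantile, 55.7% with loess and 92.4% with normexp; in AB1-HA it was 71.9%, against 92.9% with normexp. Lower genes in LLC numbered 196, against 325 with array medians, and higher genes 494 in LLC and 394 in AB1-HA, against 254 and 260 with normexp. Signals of Ifitm5 and Ifitm6 near the floor limit what can be read from them.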

Other observations

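Ifit1 and its relative Ifit1bl2 start in opposite directions, and their start windows share the same 245 bases, GAAA pairs included. Ifit1bl2 had signals of 249 and 260 units in AB1-HA (vehicle, IFN-γ) and 622 and 571 in LLC. Its IFN-γ difference was 0.02 in AB1-HA and 0.07 in LLC, where that of Ifit1 was 3.24 and a bound of 2.97. Between the lines Ifit1bl2 was 2.16-fold higher in LLC with vehicle and 2.22-fold higher with IFN-γ, and Ifit1 was lower in LLC on both. Which annotated start of Ifit1bl2 these cells use was not tested.

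Genes that modify or work with the IFIT and IFITM proteins formed a list of 11, of which 0 passed 2-fold with IFN-γ in either line. Abhd16a, which removes palmitate from proteins, was at 0.91 in AB1-HA and 0.47 in LLC. Sting1, an adaptor of DNA sensing, was at 0.67 and 0.57. Nedd4, a ubiquitin ligase that acts on IFITM3 in human cells, was at -0.28 and -0.60, and it was higher in LLC with vehicle by 1.02.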
